A study of Erythranthe guttata with 80 samples.

Results

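Linkage group 8 of Mimulus guttatus was described through 1680 genes, the members here, out of 28140 genes in the count table. They were the genes whose identifier starts Migut.H, with at least 10 counts in at least 10 of the 80 libraries. The table held 2559 Migut.H genes, of which 1687 passed that filter, and 7 of these were left out because the study names them by identifier. The filter used the level of a gene and not the direction of any difference. But a member that passed it only through the line where it is high had to differ between the lines, and its p-value is no separate support for that. Of the members, 759 had at least 10 counts in all 80 libraries. Just inside the threshold, 17 genes with exactly 10 such libraries had total counts of 233 to 1166 (median 374), and just outside it, 21 genes with exactly 9 had 140 to 1001 (median 303). Members were ordered by the number in their identifier, from Migut.H00001 to Migut.H02558, and cut into 34 windows of 50, the last holding 30. Identifier order was taken as the order of genes along the linkage group, and no coordinates were used. None of these identifiers was paired with a gene symbol, a protein or a sequence in the sources used here beyond the 7 left out, so members are given by identifier and no role is stated for them.

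Coast plants were the coastal perennial line SWB-4 and Inland plants the inland annual line LMC-17, each with 10 plants per stage. Coast was sampled as 2leaf, 4leaf, 6leaf, 8leaf and bud, and Inland as 2leaf, 4leaf and bud, with 1 tissue taken from each plant before its flowers opened. All plants were cold-stratified as seeds, grown in the same chamber under long days without further treatment and harvested in the same part of the afternoon. Only 1 inbred line stands for an ecotype, so line and ecotype cannot be told apart. RNA was read by 3′-Tag-Seq, which counts transcripts at their 3′ ends, with total counts of 1256776 to 6090402 per library (median 3839604) spread over 4 library pools of 20. Earlier results of these data singled out 4 libraries as extreme or apart from their groups (Inland 4leaf plant 4, Coast 2leaf plant 9, Inland bud plants 6 and 7), and results were also computed without them.

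An inversion is a stretch of chromosome that runs in opposite orientation in different individuals. In plants heterozygous for it, crossing over within the stretch yields few viable products, so the alleles inside it tend to be inherited together. On linkage group 8 of M. guttatus such an inversion separates most coastal perennial from most inland annual populations and affects flowering time, growth form and other life-history traits. Its ends and the orientation carried by SWB-4 and LMC-17 were not given in the sources used here, so members inside and outside it were not told apart, and values were computed for the whole linkage group and its windows.

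Members were compared between Coast and Inland at each shared stage, with log2 fold change (LFC) as Coast minus Inland. A gene was called at a Benjamini-Hochberg adjusted p under 0.05 in edgeR's quasi-likelihood test, adjusted over all 16735 genes tested. Of the members, 1639 could be tested. At 2leaf, 417 members were higher in Coast (25.5% of all genes tested were) and 402 higher in Inland (24.7% of all genes were), which together was 50% of the members against 50.2% of all genes tested. At 4leaf, 461 were higher in Coast (28.6% of all genes were) and 472 in Inland (28.8% of all genes were), or 56.9% together against 57.5% of all genes. In buds, 501 were higher in Coast (31.4% of all genes tested were) and 526 in Inland (32.7% of all genes were), or 62.7% together against 64% of all genes. At each stage the share of members called was close to that of all genes, and the calls were divided almost evenly between the lines.

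That even division depended on the scaling of the libraries, which was by trimmed mean of M values (TMM). With library size alone in its place, 511 members were higher in Coast and 320 in Inland at 2leaf, so that 61.5% of the calls were higher in Coast against 50.9% with TMM. In buds, upper-quartile factors gave 611 higher in Coast and 432 in Inland, and library size alone gave 580 and 439. These scalings moved the median LFC of all genes to 0.12 (library size, 2leaf), 0.13 (upper quartile, buds) and 0.10 (library size, buds), and the members moved with it.

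Compared with the 13 other linkage groups, linkage group 8 ranked 8 of 14 by percent called at 2leaf, 10 of 14 at 4leaf and 11 of 14 in buds. The other groups ran from 45.1% (linkage group 3) to 56% (linkage group 9) at 2leaf, from 54.4% to 60.9% at 4leaf and from 61.7% to 67.8% in buds. Members called with at least a 2-fold difference numbered 376 at 2leaf (22.9%), 436 at 4leaf (26.6%) and 481 in buds (29.3%), against 22.4%, 26.3% and 29.5% of all genes. The median absolute LFC of members was 0.49 at 2leaf, 0.56 at 4leaf and 0.59 in buds, against 0.48, 0.55 and 0.60 on the other linkage groups. No test between linkage groups was made, since neighbouring genes share their plants and are not replicates. By these counts linkage group 8 did not stand out from the other linkage groups.

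**Figure D1:**
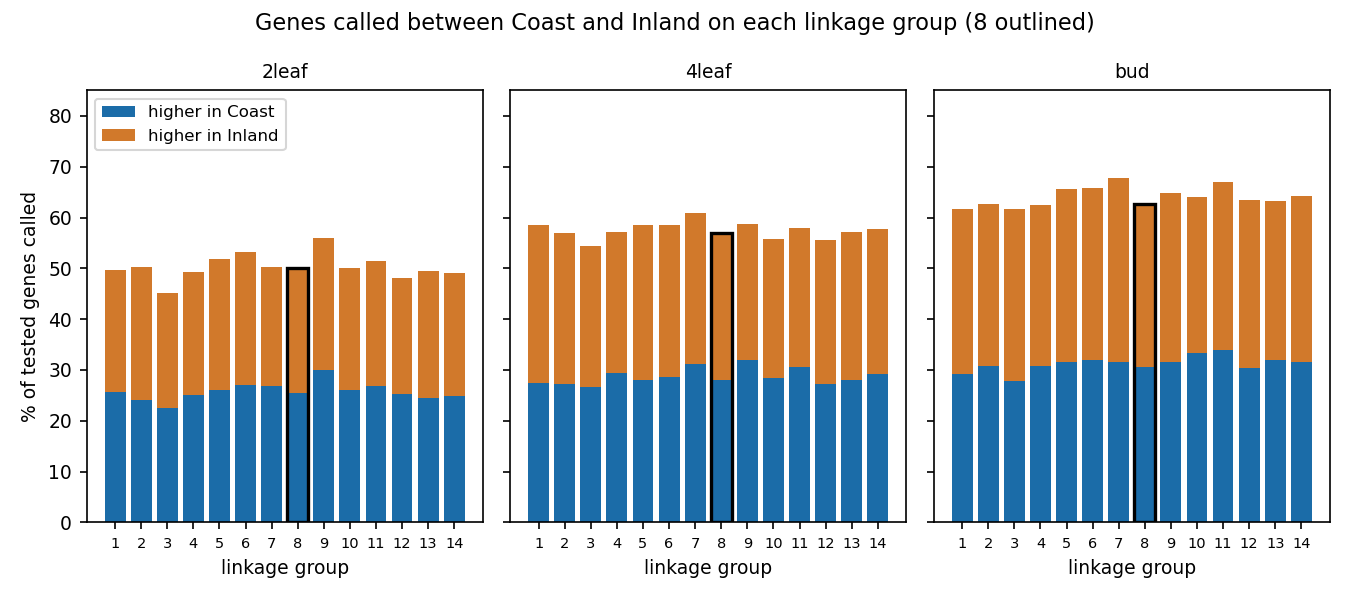
Percent of tested genes called between Coast and Inland (vertical axis) on each of the 14 linkage groups (horizontal axis) at 2leaf, 4leaf and bud; the blue part of a bar is higher in Coast, the orange part higher in Inland, and linkage group 8 is outlined. Linkage group 8 stands at 50%, 56.9% and 62.7%, inside the range of the other groups at all 3 stages.

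Plants of the lines did not overlap at all in some members. At 2leaf all 10 Coast plants lay above all 10 Inland plants for 107 members (6.53%, against 6.61% of all genes), and all Inland plants lay above all Coast plants for 118 (7.20% against 6.96%). At 4leaf 106 had Coast above (6.47% against 6.89%) and 117 had Inland above (7.14% against 7.1%), or 13.6% of members together against 14.0% of all genes. In buds 167 members had Coast above (10.2% against 10.6%) and 121 had Inland above (7.38% against 8.69%). In leaves complete separation was about as frequent among members as among all genes, and in buds it was found in 17.6% of members against 19.3% of all genes.

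Members as a whole took a similar share of each library's counts in both lines, much of it from a few abundant genes. At 2leaf they held 11.6% ± 0.37 of the counts of Coast plants and 12.0% ± 0.40 of those of Inland plants (SD, n = 10 each). In buds they held 10.4% ± 0.11 in Coast and 10.3% ± 0.14 in Inland. Without the 10 most abundant members the order at 2leaf turned, with 6.4% ± 0.18 in Coast and 6.02% ± 0.17 in Inland, and in buds the shares were 9.08% ± 0.21 and 9.16% ± 0.20. Between 1556 and 1667 of the members had at least 1 count in a library.

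In single library pools the shares called among members and among all genes again lay close. Within a pool, with 2 or 3 plants per group, 19.3% to 22.8% of members were called at 2leaf, 20.7% to 31.4% at 4leaf and 26.6% to 38.4% in buds. Over all genes these shares were 19.0% to 23%, 21.2% to 32.7% and 27.7% to 39.4%. Of the 819 members called at 2leaf, 807 could be tested in every pool, and 741 of these had the same sign in all 4. At 4leaf this held for 846 of 921 members and in buds for 940 of 1011. The calls came from a fit of these same libraries, so such agreement was largely built in. How often called genes in general kept their sign was not computed. Without the 4 libraries named at the outset, 408 members were higher in Coast and 395 in Inland at 2leaf (48.8% of members together, against 49.2% of all genes), 480 and 479 at 4leaf (58.3% against 58.4%), and 501 and 524 in buds (62.3% against 63.1%).

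Along the linkage group, windows differed in how many of their members were called. At 2leaf the percent called ran from 33.3% in window 19 (Migut.H01383 to Migut.H01469) to 70% in window 12 (Migut.H00800 to Migut.H00889). At 4leaf the same windows were lowest and highest, at 39.6% and 74%. In buds window 5 was lowest at 50% and window 16 highest at 72.3%. The 304 windows built in the same way on the other linkage groups ran from 16.3% to 71.4% at 2leaf, from 28.6% to 80.0% at 4leaf and from 42.9% to 84.4% in buds. The SD of the percent called over windows was 8.02 percentage points on linkage group 8 and 8.14 on the others at 2leaf, 8.49 and 7.47 at 4leaf, and 6.14 and 6.86 in buds. Linkage group 8 was therefore about as uneven as the others in this measure. At 2leaf window 12 was at the upper end, since only 4 of the 304 other windows reached 70%.

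Windows also differed in direction, and those given here were picked after their values were seen. In window 12, 22 members were higher in Inland and 13 in Coast at 2leaf. In window 9 the counts at 4leaf were 9 higher in Coast and 21 in Inland. The opposite held in window 25, with 17 higher in Coast and 6 in Inland at 2leaf and 20 and 8 at 4leaf. In buds window 20 had 11 higher in Coast and 25 in Inland, and window 18 had 22 and 11. Of the other 304 windows, 1 had as many members higher in Inland buds as window 20. At least 22 higher in Inland at 2leaf were found in 3 of them, and at least 21 higher in Inland at 4leaf in 12. At least 20 higher in Coast at 4leaf were found in 25, and at least 22 higher in Coast buds in 16. Window 20 had 15 and 14 at 2leaf and 10 and 16 at 4leaf.

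**Figure D2:**
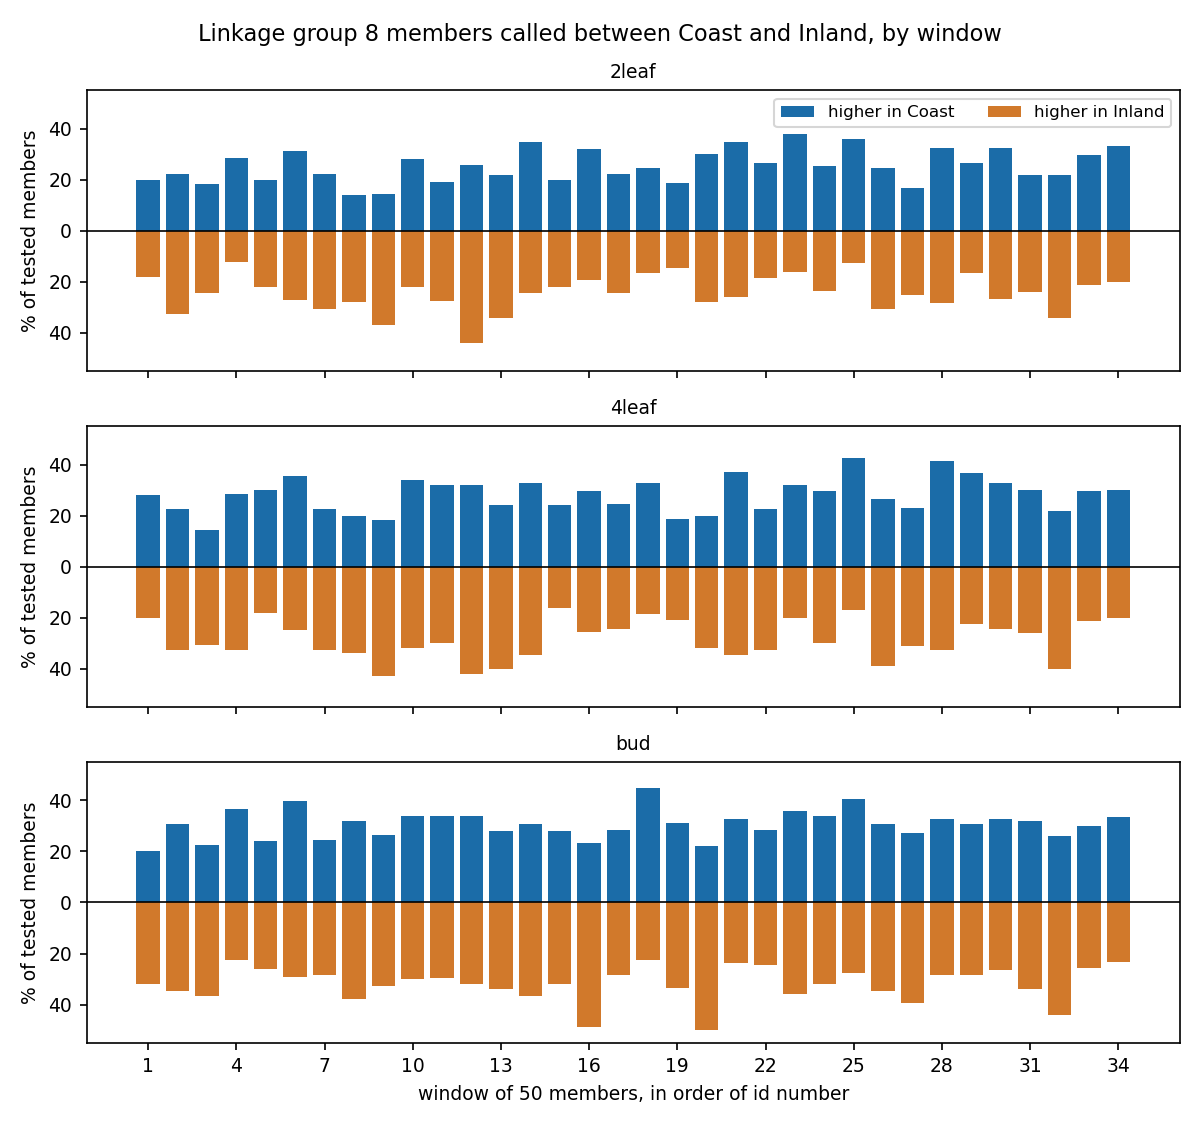
Percent of tested members in each of the 34 windows (horizontal axis, in order of identifier number) that were higher in Coast (blue, upward) or higher in Inland (orange, downward) at 2leaf, 4leaf and bud. Calls in both directions occur in every window, with the longest Inland bars in window 12 at 2leaf (22 of 50 members) and in window 20 in buds (25 of 50).

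The size of the differences was raised over a run of 4 neighbouring windows, 11 to 14 (Migut.H00682 to Migut.H01052), most clearly at 2leaf. This run was singled out after its values were seen and is given as a description. At 2leaf the median absolute LFC was 0.76 in window 11, 0.86 in window 12, 0.66 in window 13 and 0.87 in window 14. Among the other 30 windows at 2leaf, window 30 alone reached the lowest of these, at 0.72. At 4leaf window 13 had 0.558, below the median of 0.562 over the windows of the linkage group. In buds window 13 had 0.71, and windows 6, 16, 23 and 26 outside the run were higher, at 0.78, 0.82, 0.73 and 0.82. Over the 196 tested members of the run the median absolute LFC was 0.79 at 2leaf, 0.75 at 4leaf and 0.76 in buds. In the remaining 1443 members it was 0.47, 0.54 and 0.57.

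On this measure the run was compared with runs of 4 windows on the other linkage groups, 265 in all, which overlap one another. At 2leaf those ran from 0.35 to 0.70, so that none was as high. At 4leaf 1 of the 265 reached the run's value, and in buds 4 did. Members called with at least a 2-fold difference made up 35.2% of the run at 2leaf, 35.7% at 4leaf and 34.2% in buds, against 21.3%, 25.4% and 28.7% in the other windows. Of the 265 other runs, 1 had as large a share at 2leaf, 1 at 4leaf and 40 in buds. At 2leaf these large differences leaned to Inland, with 13.3% of the run's members at least 2-fold higher in Coast and 21.9% at least 2-fold higher in Inland. The other windows had 10.9% and 10.4%. In buds the lean was smaller, with 14.8% and 19.4% in the run.

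Levels of expression moved with this pattern. Members in the run had a median of 11.3 CPM (counts scaled to library size with the TMM factors), against 14.6 CPM in the other windows, and window 11 had the lowest median of any window on the linkage group at 8.71 CPM. Genes with low counts had larger absolute LFC throughout, with a median at 2leaf of 0.91 for members under 5 CPM and 0.35 for members of 50 CPM or more. Among members with a mean of at least 10 CPM, the run of 106 genes had a median absolute LFC of 0.60 at 2leaf, 0.64 at 4leaf and 0.66 in buds, against 0.36, 0.42 and 0.48 in the other windows. The windows of the run were unequal under this limit. At 2leaf window 12 had 0.72 and window 14 had 0.66, but window 13 had 0.43 and window 11 had 0.28, below the other windows. With that limit, 0, 2 and 3 of the 265 other runs were as high at 2leaf, 4leaf and bud. Within single library pools the run's median was 0.70 to 0.86 at 2leaf, against 0.50 to 0.55 in the other windows. The run was picked on these same libraries, so such agreement was largely built in.

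The run was also sparser in members. Its identifiers span 371 numbers, of which 200 (53.9%) belonged to members, against 65.7% of the numbers of the whole linkage group. Window 11 spans 116 numbers, more than any other window. In the run 68 of 196 members were called in the same direction at all 3 stages (34.7%, against 25.2% in the other windows and 27.2% of all genes), 29 of them higher in Coast and 39 in Inland. Members called at no stage made up 9.69% of the run and 17.2% of the other windows (14.8% of all genes). The run was picked for its large differences, so more calls in it follow in part from that choice. The share with an ecotype difference that changed between 2leaf and bud was alike in the run and the other windows, at 35.7% and 36.7% (36% of all genes). Reads that failed to align in a line cannot be told apart from a lack of expression, and how well each line's reads align along the linkage group was not tested.

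**Figure D3:**
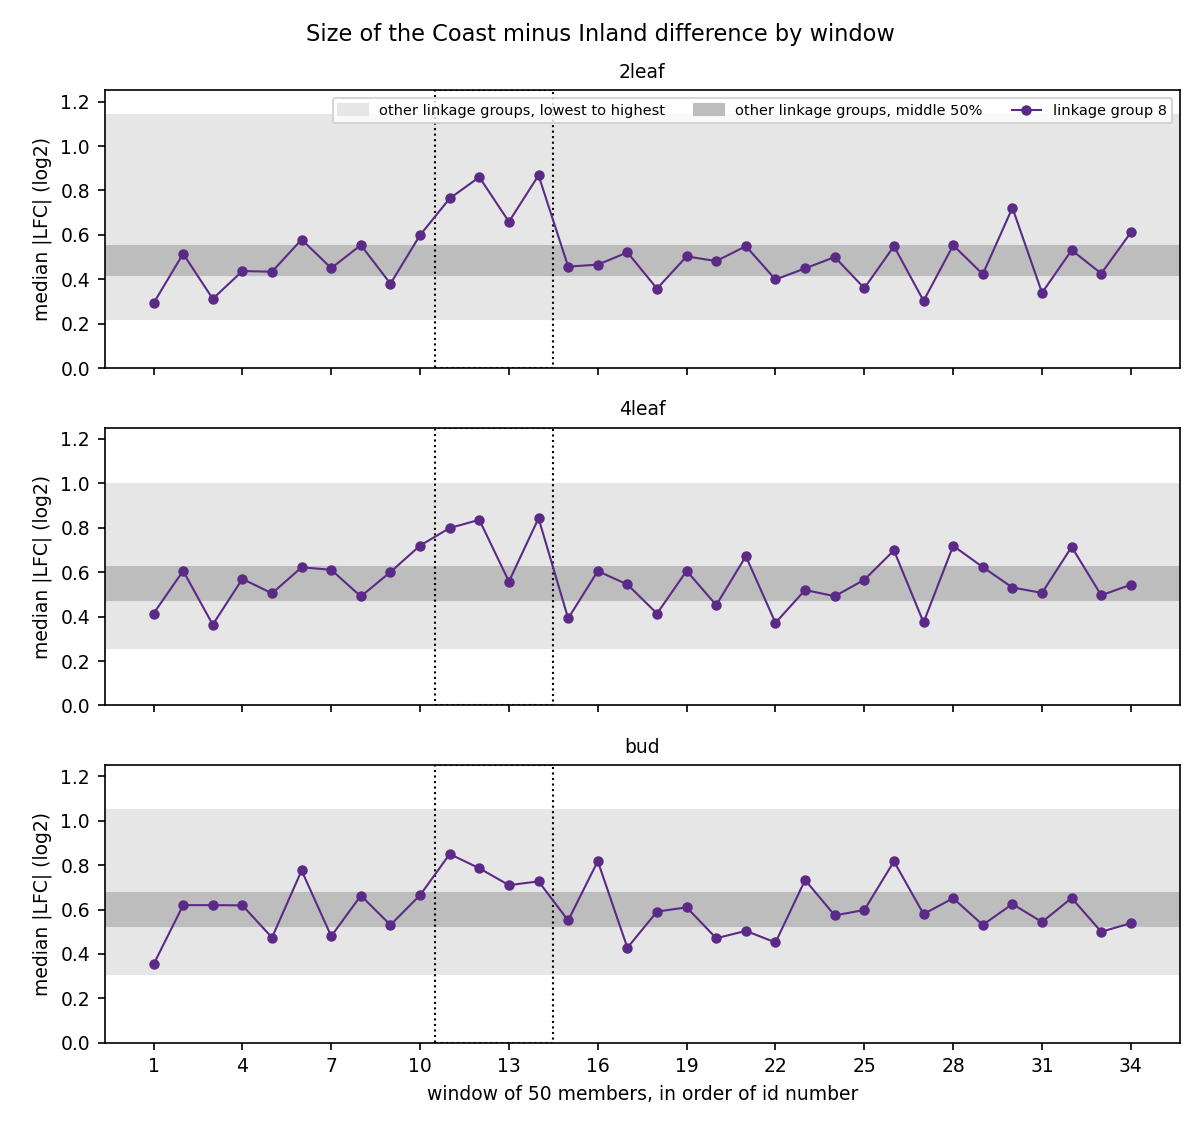
Median absolute LFC between Coast and Inland (vertical axis, log2) in each of the 34 windows (horizontal axis) at 2leaf, 4leaf and bud, over the middle 50% (dark grey) and the whole range (light grey) of the 304 windows on the other linkage groups. Windows 11 to 14, between dotted lines, lie at 0.66 to 0.87 at 2leaf and above the middle 50% there, while window 13 falls to 0.56 at 4leaf.

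At the other end, window 1 (Migut.H00001 to Migut.H00060) had the lowest median absolute LFC of the linkage group at 2leaf, 0.29, and in buds, 0.35. Of the 304 other windows, 8 were as low at 2leaf and 1 in buds. Window 1 had 10 members higher in Coast and 9 in Inland at 2leaf. Its median level was 14.2 CPM, inside the range of 8.71 to 21.3 CPM over all windows.

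Neighbouring members did not form long blocks of one direction. The longest run of neighbours called in the same direction at all 3 stages held 4 members, Migut.H00122, Migut.H00123, Migut.H00124 and Migut.H00126, all higher in Coast. On the 13 other linkage groups the longest such run held 3 to 6. Migut.H00124 had the largest difference of the 4 at 4leaf and in buds, with LFC of 0.88 ± 0.15 at 2leaf, 1.21 ± 0.15 at 4leaf and 1.56 ± 0.16 in buds (SE, n = 10 plants per group, largest adjusted p = 1.1e-06 in edgeR). Migut.H00126 had the smallest difference at all 3 stages, with LFC of 0.31 ± 0.13 at 2leaf, 0.47 ± 0.13 at 4leaf and 0.41 ± 0.13 in buds, and its call at 2leaf was lost without the 4 libraries set apart (LFC 0.31). Of adjacent members that were both called, 57.2% shared a direction at 2leaf, 54.6% at 4leaf and 53.7% in buds, with 47.2% to 58% on the other linkage groups at 2leaf. Reads of near-identical neighbouring copies could be split between them in counting, which was not tested.

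The members with the largest differences in leaves were spread over the linkage group. Migut.H02216 in window 30 had 41.9 to 64.8 CPM in Coast 2leaf plants (median 53.4), against 0 to 0.93 CPM in Inland 2leaf plants (median 0). At 4leaf it had 31.7 to 62 CPM in Coast (median 44) and 0 to 1.04 CPM in Inland (median 0.32). In buds it had 1.11 to 8.02 CPM in Coast (median 4.98) and 0 to 0.86 CPM in Inland (median 0.39). The groups did not overlap at any of the 3 stages. Its LFC was 7.86 ± 0.34 at 2leaf (adjusted p = 9.7e-29 in edgeR), 6.68 ± 0.30 at 4leaf (adjusted p = 8.0e-28) and 3.82 ± 0.34 in buds (adjusted p = 5.5e-15). With 5, 12 and 13 counts over the Inland groups, it passed the filter through Coast, so a difference was built into its choice. Along the Coast leaf series its median was 53.4, 44, 34.2 and 27.8 CPM at 2leaf, 4leaf, 6leaf and 8leaf, and in Coast buds it was below all of these. The difference between the lines was smaller in buds than at 2leaf (interaction −4.05 ± 0.75, adjusted p = 1.5e-05). Without Inland 2leaf plant 5, the highest of its group, the LFC at 2leaf was 8.75.

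Other members that were high in Coast leaves included Migut.H01132 in window 15, at 74.4 to 547 CPM in Coast 2leaf plants (median 336) and 7.94 to 45.4 CPM in Inland 2leaf plants (median 11.3), with an LFC of 4.14 ± 0.34 (adjusted p = 2.6e-16). Coast stayed above Inland without overlap at 4leaf and in buds. Migut.H02519 in window 34 had 5.68 to 15.8 CPM in Coast 2leaf plants and at most 0.76 CPM in Inland 2leaf plants. Its LFC of 5.59 ± 0.47 at 2leaf (adjusted p = 6.5e-16) compared with 0.99 ± 0.29 in buds (adjusted p = 0.0022), where the groups overlapped. Migut.H02175 in window 29 had medians of 6.55, 10.8 and 8.56 CPM in Coast at 2leaf, 4leaf and bud and 0.44, 0.59 and 1.26 CPM in Inland, with no overlap at any stage. Its LFC was 3.51 ± 0.33, 3.95 ± 0.31 and 2.67 ± 0.27 at 2leaf, 4leaf and bud (largest adjusted p = 4.0e-13). Migut.H02175 had 16, 20 and 51 counts over the Inland groups. It passed the filter through Coast, so a difference was built into its choice.

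Migut.H01933 in window 26 was nearly without counts in Inland. Coast 2leaf plants had 2.27 to 10.9 CPM (median 5.14) and summed to 173 counts, against 0 counts in the 10 Inland 2leaf plants. Taken against a floor of 3 counts over the group, it was at least 54.1-fold higher in Coast. At 4leaf there were 146 counts in Coast and 3 in Inland, a ratio of 43.8 with a 95% counting interval of 14.7 to 215. In buds it had 6.62 to 25.3 CPM in Coast (median 8.94) and 0 to 0.69 CPM in Inland (median 0), with an LFC of 5.99 ± 0.42 (adjusted p = 1.2e-17). Intervals and floors of this kind cover counting error only. Migut.H01933 passed the filter through Coast, where it is high, so a difference was built into its choice.

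**Figure D4:**
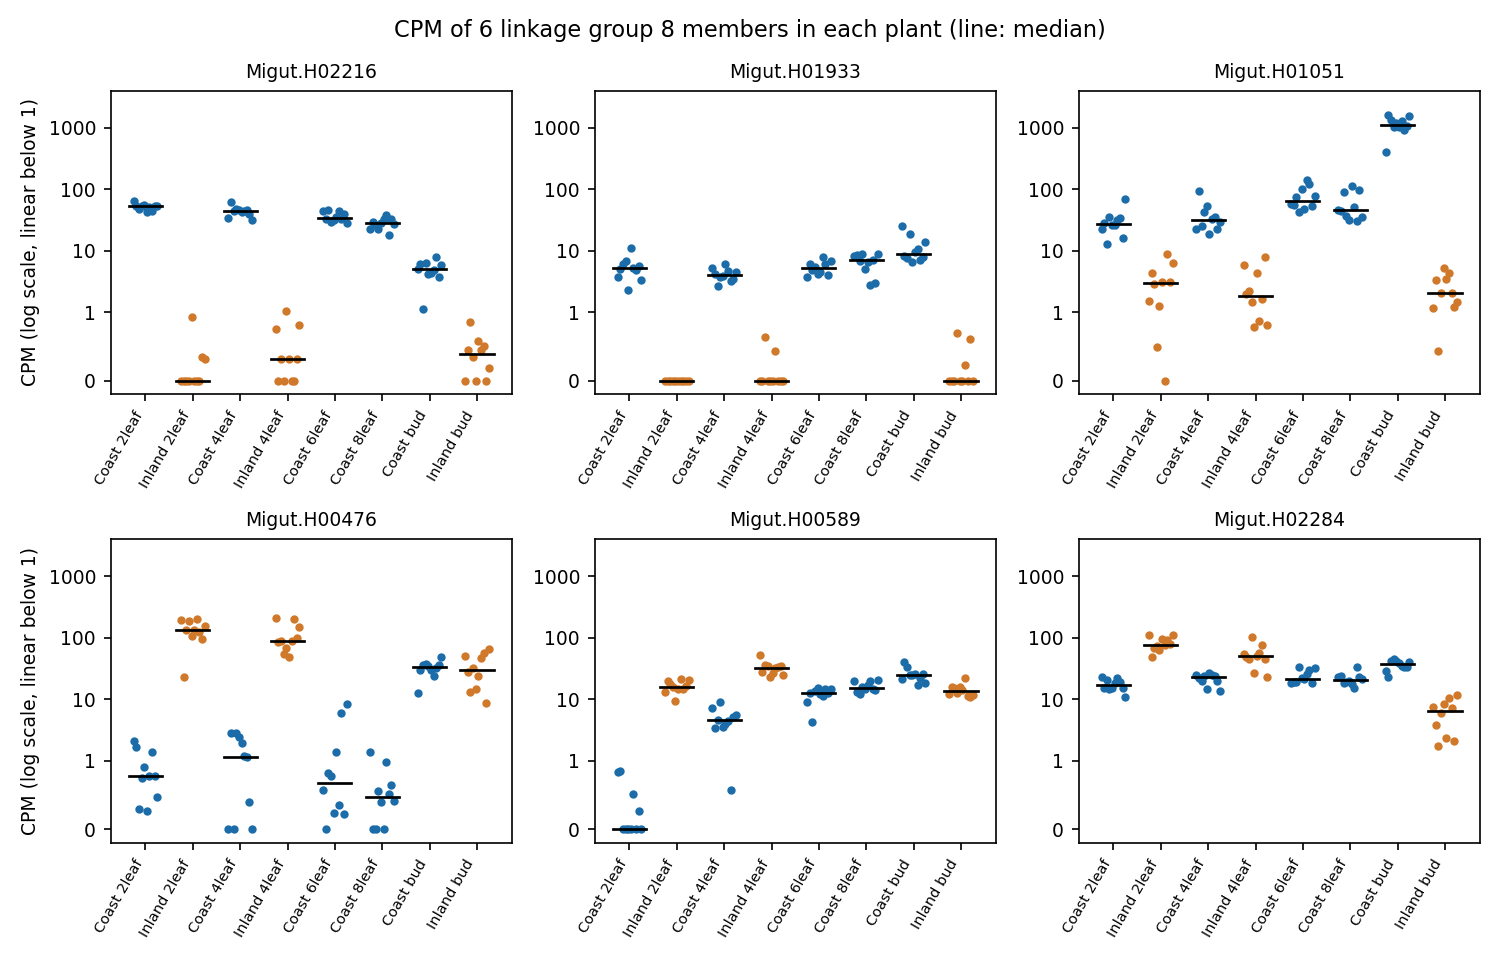
CPM of 6 members in every plant (points, blue Coast and orange Inland) with the median of each group of 10 (line), on a log axis that is linear below 1 CPM. Migut.H02216, Migut.H01933 and Migut.H01051 are above Inland in every Coast plant at all 3 shared stages. Migut.H00476 is higher in Inland leaves and alike in buds. Migut.H02284 changes side between 2leaf and bud, and so does Migut.H00589, though its buds overlap (LFC 0.79).

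Members that were high in Inland leaves differed in what they did in buds. Migut.H00476 in window 7 had 0.27 to 2.08 CPM in Coast 2leaf plants (median 0.78), against 22.9 to 201 CPM in Inland 2leaf plants (median 133). At 4leaf it had 0 to 2.84 CPM in Coast (median 1.17) and 49.2 to 210 CPM in Inland (median 88.6). In buds it had 12.7 to 48.6 CPM in Coast (median 33.7) and 8.79 to 65.1 CPM in Inland (median 29.8). Leaves of the lines were fully apart and buds overlapped. The LFC was −7.13 ± 0.45 at 2leaf (adjusted p = 3.0e-21) and −6.25 ± 0.41 at 4leaf (adjusted p = 2.7e-20), and in buds it was −0.12 ± 0.29 (adjusted p = 0.75), with an interaction of 7.01 ± 0.54 for bud against 2leaf (adjusted p = 2.9e-16). Coast leaves stayed low to 8leaf, with a highest value of 8.35 CPM over the 40 Coast leaf plants, below the lowest Coast bud.

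Migut.H00589 in window 9 showed a stepwise pattern in Coast. Its median was 0, 4.51, 12.8 and 15.2 CPM at 2leaf, 4leaf, 6leaf and 8leaf of Coast and 24.4 CPM in Coast buds, against 16.1, 32.2 and 13.3 CPM at 2leaf, 4leaf and bud of Inland. The LFC was −5.77 ± 0.35 at 2leaf (adjusted p = 6.4e-22), −2.78 ± 0.22 at 4leaf (adjusted p = 2.6e-17) and 0.79 ± 0.19 in buds (adjusted p = 0.00026). Both interactions were called, at 3.00 ± 0.47 for 4leaf against 2leaf (adjusted p = 9.7e-06) and 6.56 ± 0.41 for bud against 2leaf (adjusted p = 4.4e-20). The higher level in Coast buds did not pass the threshold with voom and limma (LFC 0.76).

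Migut.H01355 in window 18 had 3 counts in Coast 2leaf plants and 656 in Inland 2leaf plants, a ratio of 233 in favour of Inland with a 95% counting interval of 79.5 to 1134. At 4leaf it had 0 to 0.99 CPM in Coast and 3.27 to 28.8 CPM in Inland (median 19.4), with an LFC of −5.94 ± 0.46 (adjusted p = 2.3e-17). In buds both lines were low, at medians of 0.82 CPM in Coast and 0.30 CPM in Inland. There it was called higher in Coast (LFC 1.44 ± 0.55, adjusted p = 0.019), a call that was lost with voom and limma (LFC 1.00). Migut.H00562 in window 9 had 3 counts in Coast and 327 in Inland at 2leaf, a ratio of 116 (counting interval 39.4 to 567). In buds it had 80 counts in Coast and 289 in Inland, with an LFC of −2.40 ± 0.33 (adjusted p = 6.3e-09) and overlapping groups. Migut.H00216 in window 4 was the steadier of these genes, lying higher in all Inland plants than in any Coast plant at all 3 stages. Its LFC was −5.58 ± 0.39 at 2leaf, −5.88 ± 0.39 at 4leaf and −3.40 ± 0.41 in buds (largest adjusted p = 1.3e-10), and in buds −4.15 without Coast plant 3, the highest of its group. Migut.H02066 in window 28 had its largest difference at 4leaf, with 0 to 0.71 CPM in Coast (median 0.11) and 2.84 to 68 CPM in Inland (median 6.23) and an LFC of −5.85 ± 0.69 (adjusted p = 8.8e-11). Without Inland plant 5, the highest at 68 CPM, the LFC was −4.95 ± 0.62 (adjusted p = 6.6e-10). Migut.H01355, Migut.H00562, Migut.H00216 and Migut.H02066 had few counts in Coast and passed the filter wholly or mainly through Inland. A difference was thus built into their choice.

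Large differences between the lines were also found in buds. Migut.H01051 in window 14, inside the run of windows 11 to 14, had 398 to 1600 CPM in Coast buds (median 1118), against 0.43 to 5.15 CPM in Inland buds (median 2.05). At 2leaf it had 12.9 to 69 CPM in Coast (median 27.2) and 0 to 8.96 CPM in Inland (median 2.95). At 4leaf the medians were 31.1 CPM in Coast and 1.83 CPM in Inland. The groups did not overlap at any stage, and Inland medians stayed between 1.83 and 2.95 CPM in leaf and bud. The LFC was 3.17 ± 0.38 at 2leaf (adjusted p = 1.2e-10), 3.68 ± 0.37 at 4leaf (adjusted p = 5.7e-13) and 8.73 ± 0.41 in buds (adjusted p = 3.9e-27), with an interaction of 5.56 ± 0.56 for bud against 2leaf (adjusted p = 5.0e-12).

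Migut.H01250 in window 17 had 10.9 to 104 CPM in Coast buds (median 80.8) and 0 to 0.69 CPM in Inland buds (median 0.11), with an LFC of 8.11 ± 0.45 (adjusted p = 9.0e-24). In leaves its medians were under 1 CPM in both lines. Migut.H02326 in window 31 summed to 1126 counts in Coast buds and to 0 in Inland buds, which made it at least 262-fold higher in Coast. Both genes had few counts outside Coast buds and passed the filter through the group where they are high, so a bud difference was built into their choice. Migut.H01605 in window 21 had 85.7 to 233 CPM in Coast buds (median 178) and 6.96 to 30.1 CPM in Inland buds (median 24), with an LFC of 2.87 ± 0.35 (adjusted p = 1.7e-10). It was higher in Coast leaves too, with LFC of 3.74 ± 0.53 at 2leaf (adjusted p = 2.3e-08) and 1.80 ± 0.36 at 4leaf (adjusted p = 2.4e-05). Its interaction for bud against 2leaf was not called (−0.87 ± 0.67, adjusted p = 0.325). In Coast its median was 14.3, 34.8, 65.2 and 88.7 CPM at 2leaf, 4leaf, 6leaf and 8leaf, all below the Coast bud median.

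Higher in Inland buds was Migut.H00680 in window 10, with 0 to 0.59 CPM in Coast buds (median 0.23) and 5.86 to 24.5 CPM in Inland buds (median 11.9). Its LFC was −3.93 ± 0.48 at 2leaf, −4.48 ± 0.48 at 4leaf and −5.56 ± 0.37 in buds (largest adjusted p = 3.4e-10), with no overlap at any stage. Migut.H01994 in window 27 was close to 0 in leaves of both lines and had 0.16 to 3.01 CPM in Coast buds (median 0.63), against 10.7 to 60.1 CPM in Inland buds (median 19.2), with an LFC of −4.42 ± 0.37 (adjusted p = 6.1e-15). Migut.H02141 in window 29 had a like pattern, at medians of 0.49 CPM in Coast buds and 22.9 CPM in Inland buds, but the groups overlapped because 1 Coast bud reached 7.59 CPM, above the lowest Inland bud at 3.74 CPM. Migut.H01994 and Migut.H02141 passed the filter mainly through Inland buds, where they are high. Migut.H00680 passed it through Inland, with 6, 5 and 15 counts over the Coast groups at 2leaf, 4leaf and bud. A difference was built into the choice of all of these genes. Migut.H02180 in window 29 had falling medians in both lines, from leaf to bud, of 44.8, 8.85 and 1.31 CPM in Coast and 101, 71 and 18.9 CPM in Inland at 2leaf, 4leaf and bud. The gap widened, with LFC of −1.02 ± 0.19, −2.81 ± 0.21 and −3.66 ± 0.25 at these stages (largest adjusted p = 8.7e-06).

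The ecotype difference of a member could change with stage, which was tested as an interaction. Between 4leaf and 2leaf it changed for 100 members, 42 with a positive (2.54% of all genes) and 58 with a negative interaction (3.94% of all genes), which together was 6.10% against 6.48% of all genes. Between bud and 2leaf it changed for 599, of which 313 were positive (18.5% of all genes) and 286 negative (17.5% of all genes), or 36.5% together against 36% of all genes. The number for 4leaf against 2leaf was 141 without the 4 libraries set apart, or 8.57% of members against 9.82% of all genes in that fit.

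Most members called at both 2leaf and bud kept their direction. Such members numbered 573 (35%, against 35.8% of all genes). Of these, 477 (83.2%) had the same direction, against 85.3% on the other linkage groups. Counting 4leaf as well, 231 members were higher in Coast at all 3 stages (14.1%, against 14.4% of all genes) and 200 were higher in Inland at all 3 (12.2% against 12.8%). Opposite directions at 2leaf and bud were called for 96 members (5.86%, against 5.29% of all genes). Of these, 45 were higher in Coast at 2leaf and higher in Inland in buds (2.75% of members against 2.54% of all genes), and 51 were the reverse (3.11% against 2.75%). Members called at no stage numbered 267 (16.3%, against 14.8% of all genes).

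**Figure D5:**
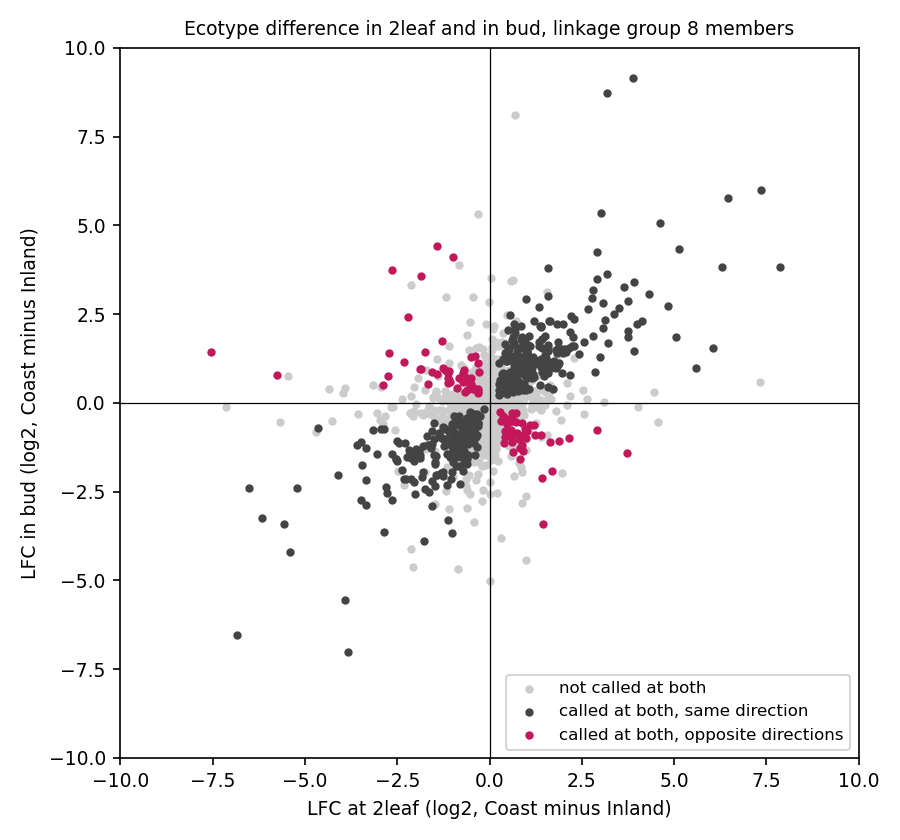
LFC in buds (vertical axis) against LFC at 2leaf (horizontal axis) for the 1639 tested members, both as log2 Coast minus Inland; dark points are the 477 members called at both stages in the same direction and magenta points the 96 called in opposite directions. Values far from 0 can belong to members with few or no counts in a line, whose fitted LFC is uncertain.

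Migut.H02284 in window 31 was among the members that changed side. At 2leaf it had 10.8 to 22.9 CPM in Coast (median 16.8) and 49 to 111 CPM in Inland (median 76.8). In buds it had 22.6 to 44.9 CPM in Coast (median 36.7) and 1.72 to 11.9 CPM in Inland (median 6.50). Inland was above Coast without overlap at 2leaf, and Coast was above Inland without overlap in buds, while at 4leaf the groups overlapped. The LFC was −2.21 ± 0.21 at 2leaf (adjusted p = 7.5e-14), −1.30 ± 0.20 at 4leaf (adjusted p = 1.9e-07) and 2.43 ± 0.22 in buds (adjusted p = 1.1e-14), with an interaction of 4.64 ± 0.30 for bud against 2leaf (adjusted p = 3.1e-19). Coast medians stayed between 16.8 and 22.9 CPM over the 4 leaf stages.

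Migut.H01533 in window 21 and Migut.H00427 in window 7 reversed in the same sense. Migut.H01533 had LFC of −2.65 ± 0.47 at 2leaf (adjusted p = 3.0e-06) and 3.73 ± 0.47 in buds (adjusted p = 6.7e-10), with medians of 0.40 CPM in Coast and 4.23 CPM in Inland at 2leaf and of 5.44 and 0.20 CPM in buds. Migut.H00427 had LFC of −1.85 ± 0.51 at 2leaf (adjusted p = 0.0017) and 3.58 ± 0.58 in buds (adjusted p = 3.1e-07). Its plants were widely spread, with 3.31 to 125 CPM in Coast and 28.2 to 244 CPM in Inland at 2leaf, where the groups overlapped. Migut.H01314 in window 17 reversed the other way, with LFC of 1.68 ± 0.53 at 2leaf (adjusted p = 0.0059) and −1.93 ± 0.30 in buds (adjusted p = 8.4e-08). Its buds had 22.2 to 396 CPM in Coast (median 70.7) and 297 to 737 CPM in Inland (median 478), against medians of 4.16 and 0.63 CPM in 2leaf plants. At 2leaf the LFC of Migut.H01533 was −3.45 without Coast plant 6 and that of Migut.H00427 was −2.83 without Coast plant 7, both the highest of their groups.

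Leaf content of the samples was checked on 5 of the chloroplast genes that the study names, which it chose on these samples. Their summed level was 2809 to 3473 CPM in Coast and 2785 to 4195 CPM in Inland at 2leaf, and 2231 to 2915 CPM and 1680 to 3240 CPM at 4leaf. In buds it was 253 to 452 CPM in Coast and 181 to 244 CPM in Inland, without overlap, and each of the 5 genes had a lower mean in Inland buds. With S5 (Migut.H01481), a linkage group 8 gene that the study names beside them and that is not a member, the sum was 377 to 619 CPM in Coast buds and 254 to 350 CPM in Inland buds, also without overlap. Their part in the bud differences of members was not tested. In whole leaves and buds, fewer cells of a type and less RNA per cell cannot be told apart.

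The 6 most abundant members were leaf transcripts, with lower levels in buds of both lines. Migut.H00506 in window 8 led, with 8361 to 15334 CPM in Coast 2leaf plants (median 11657) and 14146 to 18168 CPM in Inland 2leaf plants (median 15307), and with medians of 1572 CPM in Coast buds and 1493 CPM in Inland buds. Its LFC was −0.40 ± 0.13 at 2leaf (adjusted p = 0.0096) and 0.05 ± 0.13 in buds (adjusted p = 0.77). Migut.H01700 and Migut.H02086 were likewise lower in Coast at 2leaf, with LFC of −0.51 ± 0.12 (adjusted p = 0.00020) and −0.51 ± 0.13 (adjusted p = 0.00086), and neither was called in buds (LFC −0.14 and −0.13). Migut.H01272 was called at no stage (LFC −0.05 in buds). Migut.H00702 was higher in Coast buds (LFC 0.71 ± 0.15, adjusted p = 5.0e-05). Migut.H00113 was higher in Inland at 4leaf (LFC −0.67 ± 0.19, adjusted p = 0.0016) and higher in Coast in buds (LFC 1.00 ± 0.19, adjusted p = 6.6e-06), with bud medians of 833 CPM in Coast and 413 CPM in Inland. Of the 6, these last 2 were higher in Coast buds, as the chloroplast genes were, and the other 4 were not called in buds.

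In the windows with the highest and lowest percent called at 2leaf, the leading members by p-value were of different kinds. In window 12, Migut.H00889 had 116 to 160 CPM in Coast 2leaf plants (median 131) and 53.8 to 83.4 CPM in Inland 2leaf plants (median 67.1). It was above Inland in every Coast plant at all 3 stages, with LFC of 1.00 ± 0.10, 0.90 ± 0.10 and 1.46 ± 0.10 at 2leaf, 4leaf and bud (largest adjusted p = 5.1e-12). Migut.H00808, also in window 12, had medians of 8.61 CPM in Coast and 0.62 CPM in Inland at 2leaf, and LFC of 3.76 ± 0.31, 2.98 ± 0.29 and 1.86 ± 0.22 at these stages (largest adjusted p = 5.0e-11). In window 19, Migut.H01466 was higher in Inland leaves (LFC −1.66 ± 0.26 at 2leaf, adjusted p = 1.4e-07) and higher in Coast buds (LFC 0.54 ± 0.23, adjusted p = 0.034).

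Migut.H01396, the other leading member of window 19, split the Coast plants. At 2leaf it had 0 to 26.4 CPM in Coast (median 5.92) and 0 to 0.64 CPM in Inland (median 0). Of the 10 Coast 2leaf plants 5 were at or under 0.47 CPM and the other 5 were at 11.4 to 26.4 CPM, with none between. At 4leaf 2 Coast plants were under 1 CPM and the others at 10.7 to 36.5 CPM, and at 6leaf and at 8leaf 1 Coast plant each was under 1 CPM. In buds no Coast plant was below 4.71 CPM, and Inland buds had 1.72 to 8.39 CPM. The 5 low 2leaf plants came from 3 library pools. Between the lines the call at 2leaf (336 counts in Coast and 3 in Inland, a ratio of 105 with a 95% counting interval of 35.6 to 512) rests on 5 of the 10 Coast plants.

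Members seen in one line only were few. With a mean of at least 5 counts per library in a line over its 30 libraries of 2leaf, 4leaf and bud, and at most 5 counts in all over the 30 of the other, 5 members were seen only in Coast and 2 only in Inland. That was 0.417% of the members, against 0.661% of the genes of the other linkage groups under the same filter. Seen in Coast were Migut.H00383, Migut.H01712, Migut.H02227, Migut.H02298 and Migut.H02326, and seen in Inland were Migut.H00780 and Migut.H01081. Migut.H02227 summed to 246, 226 and 69 counts in Coast at 2leaf, 4leaf and bud and to 2, 0 and 2 in Inland. Migut.H00780, in window 11, summed to 0 counts in Coast at each of these stages, and to 98, 124 and 125 in Inland at 2leaf, 4leaf and bud. Migut.H02298 was a Coast leaf gene, with 159, 162, 82 and 62 counts over the 10 plants at 2leaf, 4leaf, 6leaf and 8leaf and 1 count in buds. The 7 members lay in 6 windows, and window 31 alone held more than 1.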

How the data were processed

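Per the labels and the study's methods, the authors trimmed 3′-Tag-Seq reads with cutadapt, aligned them to the M. guttatus reference genome with BWA and counted them per gene and strand with HTSeq 0.6.1. The deposited file holds these raw counts for 80 libraries, with totals of 1256776 to 6090402. Counts of the 60 libraries of 2leaf, 4leaf and bud were fitted in edgeR 4.0.16 (R 4.3.3) with ecotype, stage and their interaction, after filterByExpr (minimum count 10, minimum total 15) and TMM scaling, and tested by the quasi-likelihood F test with Benjamini-Hochberg adjustment at 0.05 over 16735 genes. The SE was the absolute LFC over the square root of F. Values per plant are counts scaled to library size with the TMM factors (CPM). Groups came from the sample labels. The members, gene lists and tests were chosen with earlier results of these data known. Genes were named by a rule: at each stage the 4 called members with the largest positive and the 4 with the largest negative LFC among those averaging at least 10 CPM in a group, the 6 most abundant, the 4 with the largest opposite calls at 2leaf and bud, the 2 smallest p-values of the windows with the highest and lowest percent called at 2leaf, and the longest run of neighbours. Members seen in one line were named by that count. The alternatives were voom with limma 3.58.1, DESeq2 1.42.0, other scalings and filters, added terms and left-out libraries. The fit was tested on simulated data. No pair of libraries held identical counts. The labels number the libraries as samples, and the study's methods state that a plant gave only 1 tissue, so p-values measure the spread between plants of these lines.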

Additional observations from a re-analysis of the deposited data

Results flagged for a closer look

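Among the named members, 227 groups of 10 plants with a median of at least 1 CPM were examined for a plant far from the others, and 16 had one, where chance gives about 1 in 20. Low plants in Coast were Migut.H00124 at 4leaf (plant 10, 12.1 CPM, against a group median of 19.5) and at 8leaf (plant 9, 15.0 against 22.6), Migut.H00589 at 4leaf (plant 8, 0.58 against 4.51) and at 6leaf (plant 3, 4.32 against 12.8), and Migut.H00889 at 8leaf (plant 7, 79.1 against 114). Further low Coast plants were Migut.H01051 in buds (plant 1, 398 against 1118), Migut.H01396 at 6leaf (plant 2, 0.30 against 19.4) and at 8leaf (plant 8, 0 against 24.8), and Migut.H02216 in buds (plant 3, 1.11 against 4.98). A high Coast plant was found for Migut.H00427 at 2leaf (plant 7, 125 CPM against 13.9). In Inland, plant 2 at 2leaf was low in both Migut.H00216 (6.02 CPM against 17.3) and Migut.H00476 (22.9 against 133), and bud plant 6, one of the 4 libraries set apart, was low in Migut.H00562 (0.58 against 5.43) and Migut.H01605 (6.96 against 24). Inland 4leaf plant 4, also set apart, was low in Migut.H02180 (33.8 against 71), and Inland bud plant 7, set apart as well, was high in Migut.H00589 (22.3 against 13.3).

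The Coast minus Inland difference of 21 named members changed between 2leaf and bud, by edgeR's quasi-likelihood test of the interaction with Benjamini-Hochberg adjustment. The interaction was positive, so that buds leaned more to Coast than 2leaf plants did, for Migut.H01355 (8.98), Migut.H01250 (7.43), Migut.H00476 (7.01), Migut.H00589 (6.56), Migut.H01533 (6.38), Migut.H01051 (5.56), Migut.H00427 (5.42), Migut.H02284 (4.64), Migut.H00562 (4.13), Migut.H01466 (2.20), Migut.H00216 (2.18), Migut.H00113 (1.37), Migut.H00124 (0.68) and Migut.H00889 (0.46). It was negative for Migut.H02519 (−4.60), Migut.H01396 (−4.53), Migut.H02216 (−4.05), Migut.H01314 (−3.62), Migut.H02180 (−2.64), Migut.H00808 (−1.90) and Migut.H01132 (−1.83). Values for Migut.H01355, Migut.H00562 and Migut.H01396 rest on 3 counts in a line at 2leaf, and their size is no bound. Without Coast bud plant 3 the interaction of Migut.H00216 was 1.43 and no longer passed the threshold (adjusted p = 0.26). Between 4leaf and 2leaf the difference changed for Migut.H00589 (3.00), Migut.H00427 (2.80), Migut.H02284 (0.91) and Migut.H02180 (−1.79).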

How the results depend on the processing

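Counts of calls and window shares, 16 in all, and the number of members seen in one line were compared over 12 alternatives of test, scaling, filter, terms and libraries, with 3 of window cutting and 3 of the thresholds for members seen in one line, and 211 settings stayed within 1.5 times the reported value. The number seen in one line was 2 when the other line had to hold 0 counts and 13 when up to 15 were allowed. Of the 111 values of the 37 named members none turned its direction where called, and 1265 settings left the call as it was. Calls were lost for Migut.H00506 at 4leaf (LFC −0.29 with voom and −0.30 with no filter), Migut.H00589 in buds, Migut.H01355 in buds (1.00 with voom), Migut.H01396 in buds (1.39 with voom), Migut.H02326 at 2leaf (with voom) and Migut.H00126 at 2leaf. Calls were gained for Migut.H00702 at 2leaf (0.32 with library size alone) and Migut.H01272 at 2leaf (−0.34 with library pool as a term). The cause was not tested. Leaving out the highest plant of its group, chosen after seeing the data, moved the fold by over 1.5 times for Migut.H02141 in buds (LFC −4.11 with all plants and −5.13 without Coast plant 7), Migut.H01250 at 2leaf (0.68 and 1.42 without Inland plant 8, not called) and Migut.H01396 at 4leaf (5.00 and 5.89 without Inland plant 4), beside the members given in the report. The interaction counts ranged over the alternatives from 77 to 141 for 4leaf and from 474 to 651 for bud. The median absolute LFC of windows 11 to 14 at 2leaf was 0.57 over the 122 genes left by filterByExpr given no groups, against 0.37 in the other windows, an alternative chosen after seeing the data.

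Plant numbers did not pair the libraries, since correlations of same-numbered libraries of different groups ran from −0.43 to 0.39 and 21 of 150 were over 0.1. With the replicate number as a block, 411 members were higher in Coast and 400 in Inland at 2leaf, 456 and 466 at 4leaf and 502 and 533 in buds, and Migut.H01272 was called at 2leaf (LFC −0.33). Depth limits the members with few counts, since 0 to 3 counts in a group give a bound or a wide interval and no precise fold.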
